A study of Mus musculus with 4 samples.

Results

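Cytosolic ribosomal protein genes, which encode the protein parts of the ribosomes that translate most cellular mRNA, were followed in spheroids and organoids of mouse small intestine. Members were the genes whose symbol starts with Rpl or Rps and a digit, together with Rpsa, Rplp0, Rplp1 and Rplp2, without Rps6k kinases and pseudogene symbols. This gave 75 of the 15123 genes measured, 48 of the large subunit and 27 of the small subunit. Of these symbols 7 name a gene related to a standard subunit gene (Rpl3l, Rpl7l1, Rpl22l1, Rpl36al, Rpl39l, Rps27l and Rps19bp1), and members absent from this count were not analysed here.

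All cultures came from wild-type CD1 mice and were grown in Matrigel with EGF, Noggin, R-spondin1 and fetal bovine serum. From each of 4 animals, spheroids (hollow epithelial cysts) and organoids (budding structures with crypts) were picked and replated for 3 passages, and the RNA of both was compared on 2-colour arrays with the dyes swapped. The donors were 2 fetuses taken at embryonic day 16 (E16), another fetus taken at day 18 (E18) and a newborn (P0), so a stage other than E16 rests on 1 animal. Each value is read as a log2 ratio, 1 per gene and animal. No label states the log base, so the fold values below rest on that reading. A positive ratio is read as likely higher in spheroids, since titles put spheroids first. No label states the direction, and if it were the opposite, every "higher" and "lower" below would turn. The connexin gene Gja1 had a mean ratio of 4.76 ± 0.66 (SD, n = 4) and the stem cell receptor Lgr5 one of -1.92 ± 0.58. Medians over all genes lay between -0.0035 and 0.0030 in the 4 pairs, so each ratio is relative to the average gene of its pair. No intensities were used here, so levels, depth and brightness over background are unknown, and the number of arrays limits the precision. In bulk RNA of this kind, fewer cells of a type and less RNA per cell cannot be told apart.

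A ribosome joins a small subunit, which reads the mRNA, to a large subunit, which forms the peptide bonds. Cells make the proteins of both subunits in matched amounts, and their mRNAs commonly begin with a run of pyrimidines at the cap through which mTOR signalling sets their translation. Growing and dividing epithelium, such as the crypts of the gut, is known for high output of ribosomes, and Myc and RNA polymerase I are known drivers of that output.

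The start regions of 5 members are shown because these genes had the 2 highest and 2 lowest mean ratios among members with a listed start, or, for Rps6, the lowest ratio in the E18 pair. Each runs from 60 bases before to 20 bases after the start that RefSeq lists first for the gene in assembly GRCm38.p6. Capitals mark a pyrimidine tract, which is a C within 5 bases of the start followed by at least 4 bases that are each C or T, or a match to CCGGAAG on either strand, the core bound by Ets factors.
Rps4x (chrX:102189372-102189451, minus strand): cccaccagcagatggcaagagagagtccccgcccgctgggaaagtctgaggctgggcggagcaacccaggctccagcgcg
Rps27l (chr9:66946026-66946105, plus strand): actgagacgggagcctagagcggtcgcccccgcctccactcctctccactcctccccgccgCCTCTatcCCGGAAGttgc
Rpl22 (chr4:152325666-152325745, plus strand): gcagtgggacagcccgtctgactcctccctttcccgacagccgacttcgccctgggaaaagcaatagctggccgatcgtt
Rpl5 (chr5:107900468-107900547, plus strand): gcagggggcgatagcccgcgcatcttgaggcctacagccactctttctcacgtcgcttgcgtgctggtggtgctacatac
Rps6 (chr4:86857348-86857427, minus strand): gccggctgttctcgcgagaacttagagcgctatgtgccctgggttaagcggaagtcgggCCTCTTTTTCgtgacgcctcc

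RefSeq listed a start for 61 of the 75 members. The pyrimidine tract was found at 26 of them (42.6%), against 18.5% of the 27025 listed genes. CCGGAAG stood on either strand anywhere in the RefSeq start window of 25 members (41.0%), against 9.12% of all listed genes. AAGATGGC, a core bound by Yy1, was found on either strand in 5 members (8.20%), against 2.88% of all. CACGTG, the E-box bound by Myc and the same on both strands, was found in 4 members (6.56%), against 7.24% of all, and TATAAA, read on the gene's strand alone, between 40 and 20 bases before the start in 1 (1.64%), against 2.13%. No motif overlaps another among the 5 regions shown. Members with the tract at the listed start had median ratios of 0.11 and 0.10 in the E16 pairs, -0.25 in the E18 pair and 0.08 in the P0 pair. The other 35 had 0.03 and 0.03, -0.53 and -0.04 in the same pairs. Listed starts can lie some bases away from the true cap site, so a tract outside the searched window was not counted.

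The first question was how spheroids differed from organoids over all 4 animals. The members past the threshold were Rps27l and Rps19, both higher in spheroids. In limma, with p adjusted over all 15123 genes, 2 of 75 members passed an adjusted p of 0.05, with 0 lower. Across all genes 4.36% passed in either direction and 3.02% passed as higher, so the members' count was near that of the whole array. At an unadjusted p under 0.05 there were 13 members higher, beside 11.9% of all genes, and 6 lower, beside 8.99%. The median of the members' means was -0.08, beside -0.003 over all genes, and 12 members were positive in all 4 pairs, beside 16.3% of all genes, and 10 negative, beside 14.4%. These shares were near those of the array.

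**Figure D1:**
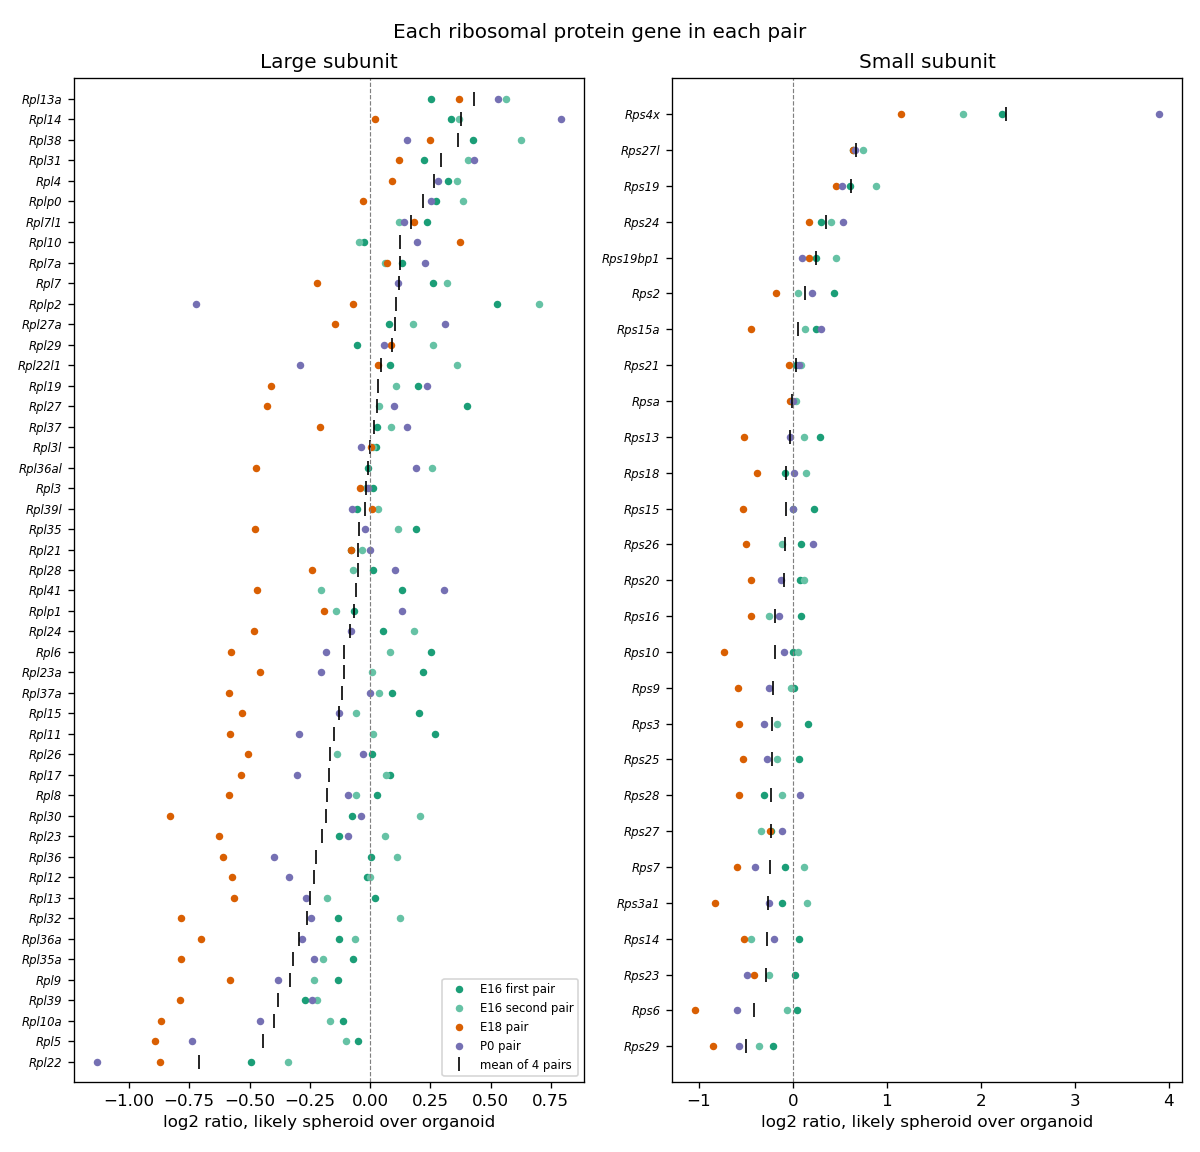
Log2 ratio (horizontal axis, likely spheroid over organoid) of each member in each of the 4 pairs, with genes ordered by their mean (black tick), large subunit on the left and small subunit on the right, on different horizontal scales. Rps4x lies apart at the top of the small subunit with 1.15 to 3.89. The E18 pair holds the lowest value of 60 of the 75 members, against 28.9% of all genes.

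Rps27l (Entrez gene 67941), a close relative of the small subunit gene Rps27 and known as a p53 target, had ratios of 0.64 and 0.75 in the E16 pairs, 0.64 in the E18 pair and 0.66 in the P0 pair. The 4 pairs spanned 0.11. Rps27l rose in spheroids by 1.59-fold, its mean being 0.67 ± 0.05 (SD, n = 4; adjusted p = 0.0112 in limma). It missed the threshold without the first E16 pair (adjusted p = 0.121) or without the second (adjusted p = 0.0745). Its namesake Rps27 lay on the other side of 0, with -0.24 and -0.34 at E16, -0.25 at E18 and -0.11 at P0. Rps27 had a mean of -0.24 ± 0.09 and an adjusted p of 0.0829 in limma. The ratios of the genes did not overlap, but the difference between both genes was not tested.

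Rps19 (Entrez gene 20085), a small subunit protein needed to mature the small subunit RNA and mutated in human Diamond-Blackfan anaemia, had ratios of 0.61 and 0.89 in the E16 pairs, 0.46 in the E18 pair and 0.53 in the P0 pair. Rps19 was 1.54-fold higher in spheroids, at 0.62 ± 0.19 (SD, n = 4; adjusted p = 0.0435 in limma). The probes behind this mean differed: 1 averaged 1.01 over the 4 pairs and the other 0.24. With the probe listed first alone, Rps19 had an adjusted p of 0.200, and with any 1 pair left out its adjusted p lay between 0.0617 and 0.216. Rps19bp1, which encodes a protein that binds Rps19 and is no part of the ribosome, had ratios of 0.25, 0.46, 0.18 and 0.10 (first E16, second E16, E18, P0), with a mean of 0.25 ± 0.16 and an adjusted p of 0.160.

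Rps4x (Entrez gene 20102), the X-linked gene of a small subunit protein, had the highest ratio of all members in every pair. Its values were 2.23 and 1.81 in the E16 pairs, 1.15 in the E18 pair and 3.89 in the P0 pair, a mean of 2.27 ± 1.17 (SD, n = 4). All 4 values were above 0 but differed widely, and Rps4x missed the threshold in limma (adjusted p = 0.103). It passed when array weights were used. It was read by 1 probe, whose sequence was not used here, so whether the probe reads Rps4x was not tested. The other X-linked members lay far lower, with means of 0.12 for Rpl10, -0.29 for Rpl36a and -0.38 for Rpl39. Without Rps4x the SD over members in the P0 pair was 0.33, against 0.56 with it.

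Among large subunit genes the highest means were those of Rpl13a, Rpl14 and Rpl38. Rpl13a, a subunit protein also known for silencing inflammatory mRNAs after interferon, had 0.25 and 0.57 in the E16 pairs, 0.37 in the E18 pair and 0.53 in the P0 pair. Its mean of 0.43 ± 0.15 missed the threshold (adjusted p = 0.0536 in limma). It passed with the columns scaled to a common spread (adjusted p = 0.0423) and with control probes of the gene kept in (adjusted p = 0.0320). Rpl14 ranged from 0.02 in the E18 pair to 0.79 in the P0 pair, with a mean of 0.38 ± 0.32 (adjusted p = 0.239). Rpl38, which in mice is needed for translation of Hox mRNAs, had 0.43 and 0.63 in the E16 pairs, 0.25 in the E18 pair and 0.15 in the P0 pair, with an adjusted p of 0.130 in limma. The probes of Rpl38 disagreed, with means of 0.65, 0.61 and -0.18. Rps24, another gene of human Diamond-Blackfan anaemia, was positive in every pair, between 0.17 and 0.53 (adjusted p = 0.0837).

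The lowest mean ratio belonged to Rpl22 (Entrez gene 19934), a large subunit protein known from mouse T cell development. Rpl22 had ratios of -0.49 and -0.34 in the E16 pairs, -0.87 in the E18 pair and -1.13 in the P0 pair, all below 0. Its mean of -0.71 ± 0.36 (SD, n = 4) is 1.64-fold toward organoids, with an adjusted p of 0.102 in limma. Its paralog Rpl22l1, which in mice rises when Rpl22 is lost, had 0.08, 0.36, 0.03 and -0.29 in the same pairs and a mean of 0.05 ± 0.27. Both genes were lowest in the P0 pair, and Rpl22l1 stood above Rpl22 in each pair. Rpl5 followed with a mean of -0.45 ± 0.43 and Rpl10a with -0.40 ± 0.35. In the small subunit the lowest means were those of Rps29 (-0.50 ± 0.28), Rps6 (-0.41 ± 0.50) and Rps23 (-0.28 ± 0.23), with adjusted p of 0.121, 0.388 and 0.222 in limma.

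The remaining paralogs lay near 0 or near their namesakes. Rpl3l, the muscle form of Rpl3, had values between -0.04 and 0.03, and Rpl3 values between -0.04 and 0.01. Rpl39l, known from testis, had values between -0.08 and 0.03, against -0.79 to -0.22 for Rpl39. Means of the 94 negative control probes ran from -0.16 to 0.07, a range that holds Rpl3, Rpl3l and Rpl39l, so equal expression and no signal cannot be told apart there. The means of further members, among them Rpl36al, Rpl22l1 and Rplp1, also lie in this range. Of these, Rpl36al lay past every negative control probe of the pair in the second E16, E18 and P0 pairs, and Rpl22l1 in the second E16 pair. Rpl36al had 0.26 in the second E16 pair and -0.47 in the E18 pair, with a mean of -0.01 ± 0.33, and Rpl36a a mean of -0.29 ± 0.29. Rpl7l1 was between 0.12 and 0.23 in all pairs (adjusted p = 0.0738), and Rpl7 ranged from -0.22 to 0.32. Many of these mRNAs have near-identical processed copies in the genome, and a probe may also read a copy.

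The second question was how the ratio differed with stage. Both subunits stood near 0 at E16 and lower afterwards, and most of that gap came with the single E18 animal. Large subunit medians were 0.03 and 0.05 in the E16 pairs, -0.46 in the E18 pair and -0.03 in the P0 pair. Small subunit medians were 0.07 and 0.06 in the E16 pairs, -0.45 in the E18 pair and -0.03 in the P0 pair. The E18 pair was low in both subunits, and the P0 pair lay nearer to the E16 pairs than to it. Negative control probes reached down to -0.36 in the E18 pair and -0.33 in the P0 pair, against -0.14 and -0.16 in the E16 pairs. Array weights, which are lower for a pair farther from the mean of all pairs, were 0.55 for E18 and 0.63 for P0. They were 2.08 and 1.39 for the E16 pairs. Whether array quality plays a part in the low E18 ratios was not tested.

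**Figure D2:**
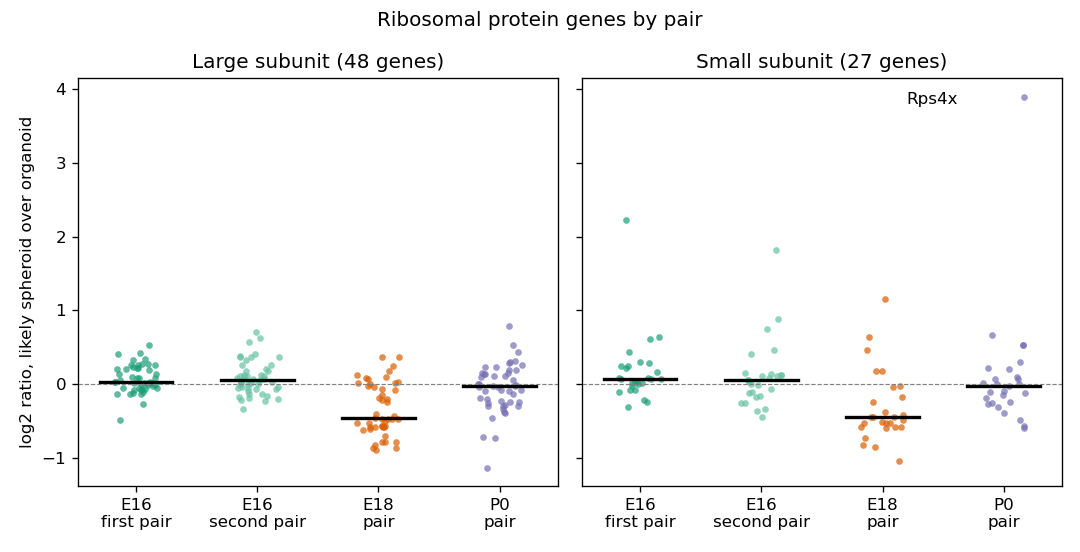
Log2 ratio (vertical axis, likely spheroid over organoid) of every member in each pair (horizontal axis, by stage), with 48 large subunit genes on the left and 27 small subunit genes on the right. Points are genes and black bars are medians; the medians of the E18 pair, -0.46 and -0.45, lie below those of the other pairs.

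The large subunit median minus the small subunit median was -0.04 and -0.01 in the E16 pairs, -0.01 in the E18 pair and -0.01 in the P0 pair. With the standard subunit genes alone the mean gap was 0.02, against -0.02 with all members, so its sign depended on which genes were counted. A score over members was given no test here.

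In the E18 pair 58 of 75 members (77.3%) were below 0, against 50.5% of all genes, and 32 lay below -0.5, where 7.18% of all genes did. In the P0 pair 5 members lay below -0.5, with 8.02% of all genes. In the first and second E16 pairs 0 members did, with 8.44% and 8.08% of all genes. E18 was the lowest of the 4 pairs for 60 members, 36 of the large and 24 of the small subunit, against 28.9% of all genes. The mitochondrial ribosomal proteins, encoded by a separate set of 75 nuclear genes, were lowest in E18 for 9 members and had a median of 0.03 there. At E16 their medians were 0.01 and 0.11, and at P0 -0.09. For 29 of them both E16 pairs lay above both later pairs and for 6 below, against 24.8% and 25.9% of all genes.

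In limma, 0 of 75 members passed for the E16 pairs against the later pairs after adjustment over all genes, and 0% of all genes passed. At an unadjusted p under 0.05, 14 members had a higher ratio at E16, beside 9.59% of all genes, and 1 a lower one, beside 9.48% of all genes. Both E16 pairs lay above both later pairs for 39 members, 26 of the large and 13 of the small subunit, where 24.8% of all genes did so. They lay below both later pairs for 1 member (Rpl10), where 25.9% of all genes did so. The difference was positive for 67 of 75 members, with a median of 0.30 beside -0.002 over all genes.

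The size of the stage difference depended on the later animal. The large subunit median at E16 minus later was 0.29 with both later pairs, 0.50 without the P0 pair and 0.07 without the E18 pair. For the small subunit the values were 0.30, 0.51 and 0.09. Without the P0 pair, limma called 12 members (16%) as higher at E16 than in the E18 pair, 8 of the large and 4 of the small subunit, beside 4.57% of all genes, and 0 as lower. That fit has 1 animal at E18, which is assumed to vary as the E16 animals do. Without the E18 pair it called 1 member, Rplp2, beside 1.1% of all genes.

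Rpl5 (Entrez gene 100503670), which with Rpl11 carries a small ribosomal RNA into the large subunit and binds Mdm2 when ribosome assembly stalls, had the smallest stage p among members. Rpl5 had ratios of -0.05 and -0.10 in the E16 pairs, against -0.89 in the E18 pair and -0.74 in the P0 pair, without overlap. Its difference was 0.74 ± 0.08 (SE), with an adjusted p of 0.0923 in limma over both later pairs. Its partner Rpl11 had 0.27 and 0.01 at E16, against -0.58 in the E18 pair and -0.30 in the P0 pair, a difference of 0.58 ± 0.16 (SE).

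Rps6 (Entrez gene 20104), the main ribosomal substrate of the S6 kinases downstream of mTOR, had 0.04 and -0.06 in the E16 pairs, against -1.04 in the E18 pair and -0.60 in the P0 pair. Its difference of 0.81 ± 0.18 (SE) did not pass over both later pairs (adjusted p = 0.166 in limma). Rps6 was called against the E18 pair alone, with a difference of 1.03 and an adjusted p of 0.0345, as was Rpl5 with 0.82 and an adjusted p of 0.0357. The other members called there were Rpl10a, Rpl12, Rpl17, Rpl35, Rpl36, Rpl36a, Rpl37a, Rps9, Rps10 and Rps20.

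Other small subunit genes with large differences were Rps3a1 and Rps7. Rps3a1 had -0.11 and 0.15 at E16, against -0.83 in the E18 pair and -0.26 in the P0 pair. Rps7 had -0.09 and 0.12 at E16, against -0.59 in the E18 pair and -0.40 in the P0 pair. Neither pair of stages overlapped in either gene, and the adjusted p in limma were 0.378 and 0.169.

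The acidic stalk of the large subunit, which recruits elongation factors, held genes with different patterns, a difference that was not tested. Rplp2 had 0.53 and 0.70 in the E16 pairs, against -0.07 in the E18 pair and -0.72 in the P0 pair, the widest range of the large subunit. Its difference was 1.01 ± 0.27 (SE), with an adjusted p of 0.196 over both later pairs and of 0.0492 against the P0 pair alone. Rplp0, the base of the stalk, had 0.27 and 0.39 at E16, against -0.03 in the E18 pair and 0.25 in the P0 pair. The 2 probes of Rplp0 differed. The lower had 0.24 and 0.28 at E16, against -0.31 in the E18 pair and -0.04 in the P0 pair. The higher had 0.31 and 0.49 at E16, against 0.25 and 0.54, so the pattern of Rplp0 depends on the probe. Rplp1, the partner of Rplp2, had -0.07 and -0.14 at E16, against -0.19 in the E18 pair and 0.13 in the P0 pair. Each Rplp1 value lay within the range of the negative control probes of its pair.

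The difference was negative for 8 members. Rpl10, an X-linked protein that joins the large subunit late, had -0.02 and -0.05 at E16, against 0.37 in the E18 pair and 0.20 in the P0 pair, a difference of -0.32 ± 0.08 (SE) with an adjusted p of 0.193 in limma. Rplp1 and Rpl14 had differences of -0.07 and -0.05, and Rps4x and Rps27 had -0.50 and -0.11. Without the P0 pair the differences of Rplp1, Rpl14 and Rps4x were positive, at 0.09, 0.33 and 0.87. Among these 5, Rpl10 alone had no overlap between the stages.

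Ribosome assembly factors, of which 48 were measured, had median ratios of 0.36 and 0.48 in the E16 pairs, -0.11 in the E18 pair and 0.06 in the P0 pair. For 39 of the 48 both E16 pairs lay above both later pairs, where 24.8% of all genes did so. In limma 0 passed in either comparison, beside 4.36% of all genes over all pairs and 0% for stage. At an unadjusted p under 0.05, 27 had a higher ratio at E16, beside 9.59% of all genes. Mrto4, which acts on the nascent large subunit, had 0.74 and 0.68 at E16, against 0.06 in the E18 pair and -0.04 in the P0 pair (adjusted p = 0.0923). Rrp12, an export factor of both subunits in yeast, had a difference of 1.09 ± 0.15 (SE) and Rrp9, a protein of the U3 particle, one of 0.53 ± 0.07. Over all pairs the genes with the largest moderated t were Nop2 at 0.49 ± 0.20 (SD, n = 4), Imp3 at 0.38 ± 0.19 and Imp4 at 0.29 ± 0.11.

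Of 9 measured genes of RNA polymerase I transcription, 1 passed as higher in spheroids, beside 3.02% of all genes. It was Polr1c, a subunit shared with RNA polymerase III, at 0.46 ± 0.12 (SD, n = 4) with an adjusted p of 0.0381 in limma. Medians of the 9 genes were 0.31 and 0.41 in the E16 pairs, -0.06 in the E18 pair and 0.11 in the P0 pair. Of 14 elongation factors and other mRNAs with a pyrimidine tract, 0 passed in either comparison, beside 4.36% of all genes over all pairs and 0% for stage. For stage, 5 had an unadjusted p under 0.05 in limma, all higher at E16, beside 9.59% of all genes. Hnrnpa1, which binds RNA, had 0.33 and 0.46 at E16, against -0.79 in the E18 pair and -0.79 in the P0 pair (adjusted p = 0.0915), and the elongation factor subunit Eef1b2 had -0.02 and -0.02, against -0.46 and -0.27. Fau, a small subunit protein outside the symbol rule, was negative in all pairs, at -0.30 ± 0.12.

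**Figure D3:**
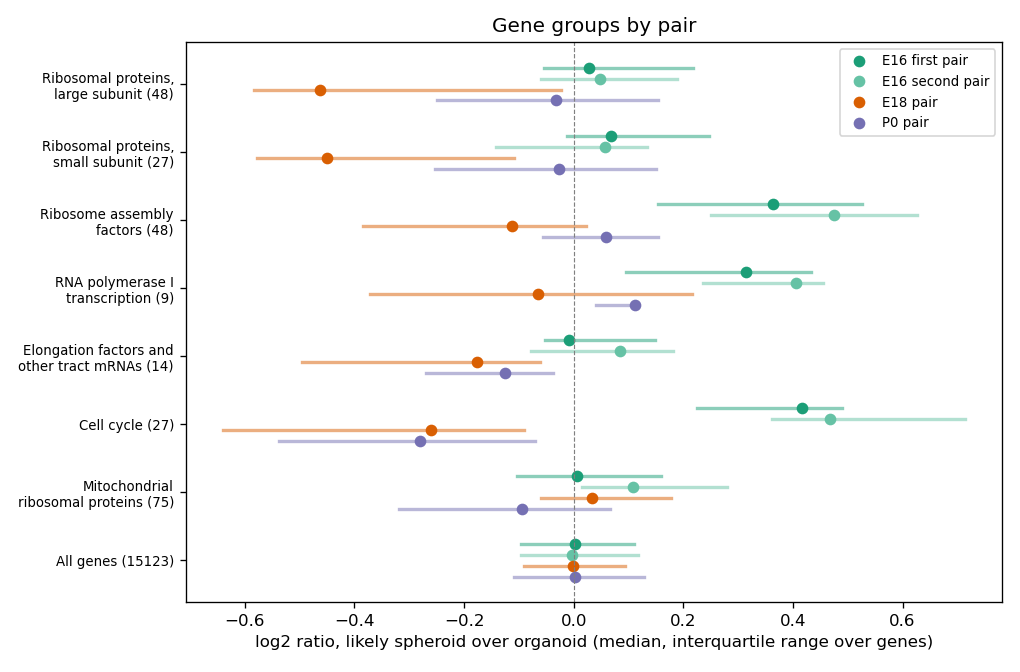
Median log2 ratio (horizontal axis, likely spheroid over organoid) of gene groups (vertical axis, number of genes in brackets) in each pair; points are medians and lines the interquartile range over genes. Ribosomal proteins of both subunits are lowest in the E18 pair, and assembly factors and cell cycle genes are high in both E16 pairs. Medians of mitochondrial ribosomal proteins run from -0.09 in the P0 pair to 0.11 in the second E16 pair, and those of all genes lie near 0 in every pair.

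Myc and mTOR control genes had medians of -0.01 and -0.06 in the E16 pairs, -0.06 in the E18 pair and 0.14 in the P0 pair. In limma 0 of 14 passed in either comparison, beside 4.36% of all genes over all pairs and 0% for stage. At an unadjusted p under 0.05 there were 3 over all pairs and 2 for stage, beside 20.9% and 19.1% of all genes. Myc had 0.75 and 0.57 at E16, against -0.10 in the E18 pair and 0.07 in the P0 pair (difference 0.68 ± 0.11 SE, adjusted p = 0.112). Mxi1, which opposes Myc, had -0.42 and -1.12 at E16, against 1.15 in the E18 pair and 0.49 in the P0 pair (adjusted p = 0.173). Of the 75 mitochondrial ribosomal proteins, 1 passed as higher in spheroids, beside 3.02% of all genes. It was Mrps6, at 0.54 ± 0.08 (SD, n = 4) with an adjusted p of 0.0199 in limma.

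Cell cycle genes also had higher ratios at E16, 20 of 27 at an unadjusted p under 0.05 in limma, beside 9.59% of all genes. After adjustment 0 passed for stage, as over all genes. Over all pairs 1 of 27, Cdc20, passed as higher in spheroids (adjusted p = 0.0435 in limma), beside 3.02% of all genes. Cell cycle medians were 0.42 and 0.47 in the E16 pairs, -0.26 in the E18 pair and -0.28 in the P0 pair. Both E16 pairs lay above both later pairs for 25 of 27, where 24.8% of all genes did so. The cell cycle genes were about as low in the P0 pair as in the E18 pair, whereas the ribosomal protein medians were near 0 in the P0 pair. Epithelial markers had medians of -0.14 and -0.27 in the E16 pairs, 0.32 in the E18 pair and 0.07 in the P0 pair. Of these 9 markers 2 passed, beside 4.36% of all genes, Krt18 as higher at 1.44 ± 0.21 and Epcam as lower at -0.63 ± 0.09. Medians of 10 mesenchymal, 5 endothelial, 4 leukocyte and 2 nerve markers lay between -0.08 and 0.10 in every pair. Among mesenchymal markers Vim had -0.22 and -0.05 at E16, against -0.90 in the E18 pair and -0.61 in the P0 pair. The part of cell cycle or cell type differences in the members' ratios was not tested.

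Across the 75 members the order of genes was moderately correlated between pairs. Spearman correlations across members, which share arrays and are not independent replicates, were 0.55 between the E16 pairs, 0.73 between the E18 and P0 pairs and 0.51 to 0.56 between an E16 pair and a later one. Over all genes the same measure was higher between the E16 pairs, at 0.76, and lower elsewhere, at 0.46 for E18 with P0, 0.18 and 0.11 for E16 with E18, and 0.39 and 0.31 for E16 with P0.

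Of the members, 56 had 1 probe and 19 had more. In those 19 the median gap between the means of the highest and lowest probe was 0.28, against 0.10 in the 5108 genes of the whole array with more than 1 probe. The widest gaps were 0.83 for Rpl38 and 0.77 for Rps19, and no other member had one above 0.5. Rpl38 had probe means of 0.65, 0.61 and -0.18. The third Rpl38 probe was at -0.55 in the E18 pair, where the others were at 0.72 and 0.57. Medians in the E18 pair were -0.49 for members with 1 probe and -0.19 for members with more. E18 was the lowest pair for 44 of 56 and 16 of 19, beside 28.9% of all genes.

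**Figure D4:**
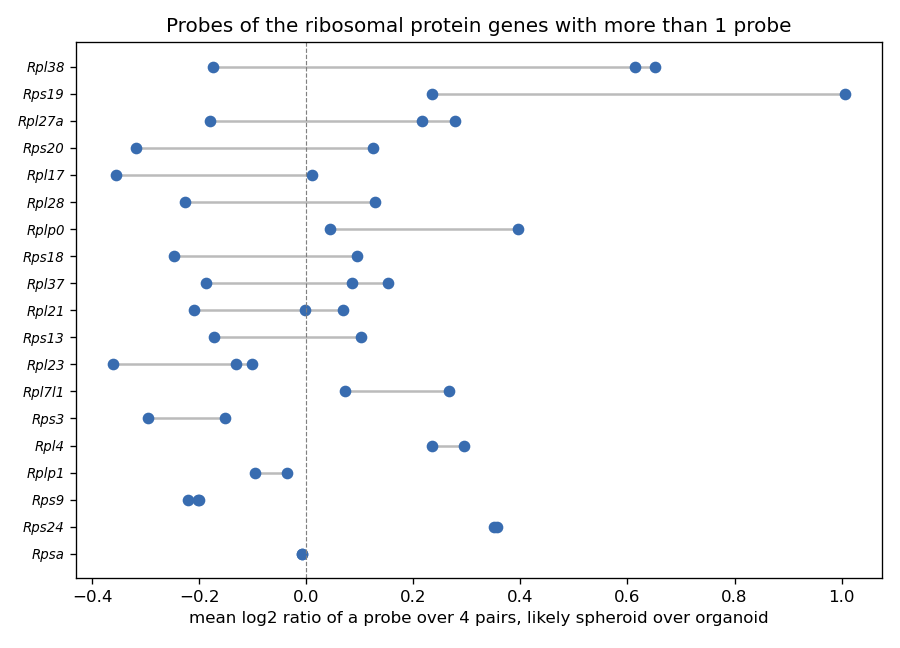
Mean log2 ratio over the 4 pairs (horizontal axis, likely spheroid over organoid) of each probe of the 19 members with more than 1 probe (vertical axis, ordered by gap). Points are probes joined by a line per gene; Rpl38 and Rps19 have the widest gaps, 0.83 and 0.77.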

How the data were processed

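Spheroid and organoid RNA of each of 4 animals was compared on 2-colour arrays of long oligonucleotide probes, with dye swaps per the series' design text. The deposited table gives a ratio, read here as log2, for each of 38083 probes in each animal. How the authors corrected and normalized it, its log base and its numerator: not given in the sources used here. Of these, 22941 probes name 1 gene in GEO's platform annotation, and 15142 name none. The 22305 named probes with a gene prefix were averaged to 15123 genes, with symbols taken through the gene ID from RefSeq (GRCm38.p6).

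The mean of the 4 pairs was tested against 0, and the 2 E16 pairs against the 2 later pairs, with limma 3.58.1 in R 4.3.3 (lmFit, eBayes; two-sided). P-values were adjusted by Benjamini and Hochberg's method across the 15123 genes, and 0.05 was the threshold. The code was tested on simulated data. Each pair came from a different embryo or newborn, per the series' design text. The members and gene lists were chosen with earlier results of these data known. Named were members past the threshold, the 3 highest and 3 lowest of each subunit in each comparison, related symbols with their namesakes, the widest range of each subunit, and up to 3 genes per other list by moderated t; any further gene is an example picked once its values were known. Alternatives were array weights, a robust prior, column scaling or centring, the first probe of each gene, control probes kept in, standard subunits alone, leaving out each pair and, chosen after seeing the data, leaving out Rps4x.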

Additional observations from a re-analysis of the deposited data

Results flagged for a closer look

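The E18 pair lay apart from the other 3 pairs for Rpl37a, at -0.586 against -0.002 to 0.09, for Rpl39, at -0.790 against -0.27 to -0.22, and for the large subunit median, at -0.464 against -0.03 to 0.05. These 3 were found among 77 values examined, and chance flags about 1 in 20 groups.

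The subunit medians were above 0 in both E16 pairs and below 0 in both later pairs, with differences of 0.287 for the large and 0.301 for the small subunit. The P0 medians lay near 0, both at -0.03, and without the E18 pair the differences were 0.07 and 0.09. The difference of these medians was not tested.

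Rpl13a was also read by probes that the comparisons left out because they carry a control prefix. The 20 probes with the mCP prefix had a median ratio of 0.425, between 0.35 and 0.47, and all 20 were positive in all 4 pairs. The 2 probes with the mCA prefix had a median of 0.106. Both medians lie above the highest mean of the negative control probes over the 4 pairs, 0.07. By pair, the mCA medians were 0.09 and 0.10 at E16, 0.15 at E18 and 0.09 at P0. The highest negative control probe had 0.15, 0.20, 0.10 and 0.17 in the same pairs, so the mCA median lay above it in the E18 pair alone.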

How the results depend on the processing

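Each ratio already compares spheroids and organoids of the same animal, so the tests used this pairing and no further pairing was added. Replicate numbers exist for the E16 pairs alone. For spheroid over organoid, the count of 2 members past the threshold was 1 with a single probe per gene and 1 with a robust prior (Rps27l in both). With array weights it was 7, adding Rpl4, Rpl7l1, Rps24, Rps4x and, as lower in spheroids, Rps27. The count was 3 with scaled columns and 3 with control probes kept (both adding Rpl13a), and 0 to 2 with a pair left out. It was 0 in limma without either E16 pair, where 18 and 14 members had an unadjusted p under 0.05. Rps27l had an adjusted p of 0.121 without the first E16 pair and of 0.0745 without the second. For E16 over later, the count of 0 was 0 to 12 with a pair left out, with 12 without the P0 pair and 1 without the E18 pair, and 0 under every alternative that kept all pairs, where 11 to 17 members had an unadjusted p under 0.05. The mean gap of large minus small subunit median was -0.02 with all members, 0.0153 with standard subunits alone and 0.0011 without Rps4x, an alternative chosen after seeing the data. Without the E18 pair, the mean of the pair medians was 0.01 for the large and 0.03 for the small subunit, against -0.11 and -0.09 with it. Without the P0 pair, the stage difference turned positive for Rps4x (0.87), Rpl14 (0.33) and Rplp1 (0.09), against -0.50, -0.05 and -0.07 with it. Brightness over background is unknown, so dim probes could not be left out.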
